A study of Drosophila melanogaster with 8 samples.

Results

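The 6 mRNAs that follow each other on the plus strand of the Drosophila melanogaster mitochondrial genome (mtDNA) from ND2 to ND3 were described in RNA recovered with J2, an antibody that binds double-stranded RNA (dsRNA). The members, mt:ND2, mt:CoI, mt:CoII, mt:ATPase6, mt:CoIII and mt:ND3, were chosen by map position and not by their values, and all 6 were found among the 13970 genes of the deposited values. The table holds 5 further mitochondrial mRNAs (ND5, ND4, ND6, Cyt-b and ND1) and both mitochondrial rRNAs, while ATPase8 and ND4L were not analysed here. Values are TPM, a relative measure of RNA that is corrected for the length of the transcript, so values of different mRNAs can be ordered within a library. Levels and ranks below are those in J2-recovered RNA, with sense and antisense reads not separated. They do not give the abundance of each mRNA in the larvae.

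Cytosolic and mitochondrial fractions were prepared by differential centrifugation from whole larvae 4 days after egg laying. The labels give the genotype of control larvae as ;; (written w;; in the study's text) and that of dmpnpaseKO larvae as ;;dmpnpase-/dmpnpase-, homozygous for a frame shift in exon 2 of CG11337 made by CRISPR/Cas9, the gene for polynucleotide phosphorylase (PNPase). Both genotypes were in the wDah (white Dahomey) background, and the knockout is a single engineered line that is lethal at the larval stage, with the mutation present in every tissue. Genotype and fraction together give 4 groups with 2 libraries each, 8 in all, made from J2 immunoprecipitates of 5 μg RNA. Nothing in the labels says that the 2 libraries of a group came from separate collections of larvae, so p-values measure only the spread between these libraries, which may be technical.

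Mitochondrial genes are transcribed as long polycistronic RNAs from both strands of mtDNA, and most mRNAs are released when the tRNAs that lie between them are cut out. PNPase acts with the RNA helicase SUV3 in the mitochondrial degradosome, which degrades mRNAs and also removes antisense RNA. An mRNA and its antisense RNA can pair into the dsRNA that J2 binds. The genotypes were compared in both fractions to ask which RNAs form such dsRNA and whether they occur outside mitochondria.

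The block runs from position 240 to 5961 of the mitochondrial chromosome (BDGP6 assembly, plus strand), a span of 5722 bases. ND2 (FBgn0013680, positions 240 to 1263) encodes a subunit of respiratory complex I. CoI (FBgn0013674, 1474 to 3009) encodes the catalytic subunit of cytochrome c oxidase, complex IV, and CoII (FBgn0013675, 3083 to 3767) encodes the subunit that takes electrons from cytochrome c. ATPase6 (FBgn0013672, 4062 to 4736) encodes a subunit of the proton channel of ATP synthase. CoIII (FBgn0013676, 4736 to 5524) encodes a further core subunit of complex IV, and ND3 (FBgn0013681, 5608 to 5961) a small subunit of complex I. The neighbours differ in what separates them. Between ND2 and CoI lie 210 bases with 1 tRNA gene of the same strand (Trp) and 2 of the opposite strand (Cys and Tyr). CoI and CoII are separated by 73 bases with the tRNA gene for Leu, and CoIII and ND3 by 83 bases with that for Gly. CoII and ATPase6 are 294 bases apart, with 2 tRNA genes (Lys and Asp) and ATPase8, whose end overlaps ATPase6 by 7 bases. ATPase6 and CoIII share 1 base and are the only neighbours of the block with no tRNA gene between them.

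**Figure D1:**
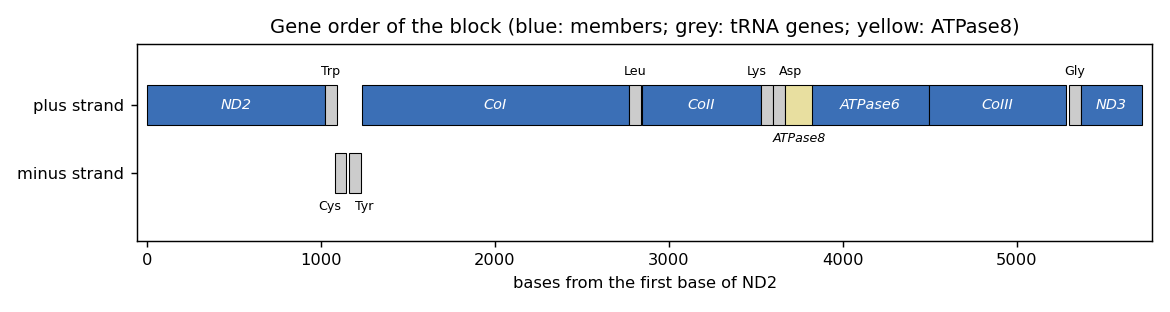
Map of the block drawn to scale, with distance in bases from the first base of ND2 on the x axis and the strand on the y axis. Blue boxes are the 6 mRNAs, grey boxes tRNA genes and the yellow box ATPase8; ATPase6 and CoIII abut, and a tRNA gene lies between all other neighbours.

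The libraries differed in ways that touch every comparison below. Between 42.7% and 96.6% of TPM fell on nuclear rRNA pseudogenes, and between 61 and 11051 genes were listed above 0. The library with 61 such genes is dmpnpaseKO cytosol replicate 2, so a gene listed at 0 there is not read as absent. In controls the mitochondrial rRNAs took 22.8% and 57.1% of TPM in cytosolic and 2.62% and 24.3% in mitochondrial libraries, so the fractions overlap for these rRNAs, whereas all 6 mRNAs of the block were higher in both control mitochondria libraries than in both of the cytosol. PNPase itself was listed above 0 in only 2 libraries, at 0.0197 TPM in control mitochondria and at 0.0415 TPM in dmpnpaseKO mitochondria, so the genotype labels cannot be checked on it. Summed TPM of the larval tissue markers also moved with genotype. In the mitochondrial fraction, the 4 cuticle genes summed to between 42.2 and 97.2 TPM in controls and between 0.97 and 4.21 TPM in dmpnpaseKO, and the 6 fat body genes to between 26.5 and 45.6 and between 0.059 and 0.176 TPM. The 5 gut genes summed to between 6.65 and 29.1 TPM in control and between 60.4 and 168 TPM in dmpnpaseKO mitochondria, and 5 of 6 muscle genes, those in the table, to between 11.0 and 20.6 and between 79.2 and 151 TPM. In the cytosol the same sums stayed at or below 45.4 TPM. The cuticle genes, between 2.38 and 6.01 TPM in controls, were at or below 0.204 TPM in dmpnpaseKO, with 3 of the 4 listed at 0 in both libraries. One of these is the library with 61 genes above 0. The muscle genes summed to between 1.03 and 2.13 TPM in controls and between 4.43 and 45.4 TPM in dmpnpaseKO, with as few as 1 above 0. The genotypes overlapped for fat body (3.18 to 39.7 against 0.0924 to 25.1 TPM) and gut (0 to 1.84 against 0 to 3.16 TPM). The part of the tissue markers in the changes of the block was not tested. In such bulk samples, fewer cells of a type and less RNA per cell cannot be told apart.

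CoI was the leading mRNA of the block. In control larvae it had 40.6 and 169 TPM in the cytosol and 1639 and 5541 TPM in mitochondria. In dmpnpaseKO larvae it had 9098 and 8082 TPM in the cytosol and 8788 and 83383 TPM in mitochondria. It ranked first of the 6 in 6 libraries and second in the other two, and stood between rank 5 and rank 16 of all 13970 genes. Both dmpnpaseKO cytosol libraries lay above both control mitochondria libraries.

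ND2, its upstream neighbour, was listed in control larvae at 2.49 and 13.3 TPM in the cytosol and at 47.7 and 412 TPM in mitochondria. In dmpnpaseKO larvae it reached 788 and 1600 TPM in the cytosol and 656 and 9701 TPM in mitochondria. It was below CoI in all 8 libraries and was the lowest of the block in 3. ND2 and CoI were the 2 members for which both dmpnpaseKO cytosol libraries exceeded both control mitochondria libraries, an order given as a description since genotype and fraction both differ.

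CoII had 16.7 and 101 TPM in the cytosol and 901 and 2315 TPM in the mitochondria of control larvae. The dmpnpaseKO libraries had 1111 and 801 TPM for the cytosol and 6938 and 9618 TPM for mitochondria. For this mRNA the dmpnpaseKO cytosol lay within or below the range of control mitochondria. ATPase6 lay below CoII in every library, with 6.84 and 33.2 TPM (cytosol) and 543 and 552 TPM (mitochondria) in controls, against 592 and 320 TPM (cytosol) and 4809 and 5918 TPM (mitochondria) in dmpnpaseKO. CoIII is encoded directly after it. Controls had 21.6 and 69.0 TPM of CoIII in the cytosol and 1763 and 1284 TPM in mitochondria, and dmpnpaseKO larvae had 1341 and 976 TPM and 10795 and 11283 TPM in these fractions. It was the leading mRNA in the 2 libraries in which CoI came second, replicate 1 of control and of dmpnpaseKO mitochondria.

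ND3, the last and shortest of the 6, had 2.57 and 9.91 TPM in the cytosol of controls and 114 and 240 TPM in their mitochondria. In the dmpnpaseKO cytosol it had 198 TPM in replicate 1 and was listed at 0 in replicate 2, where the other 5 members were between 320 and 8082 TPM. In dmpnpaseKO mitochondria it was at 2169 and 2243 TPM. It ranked last of the block in 5 libraries.

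**Figure D2:**
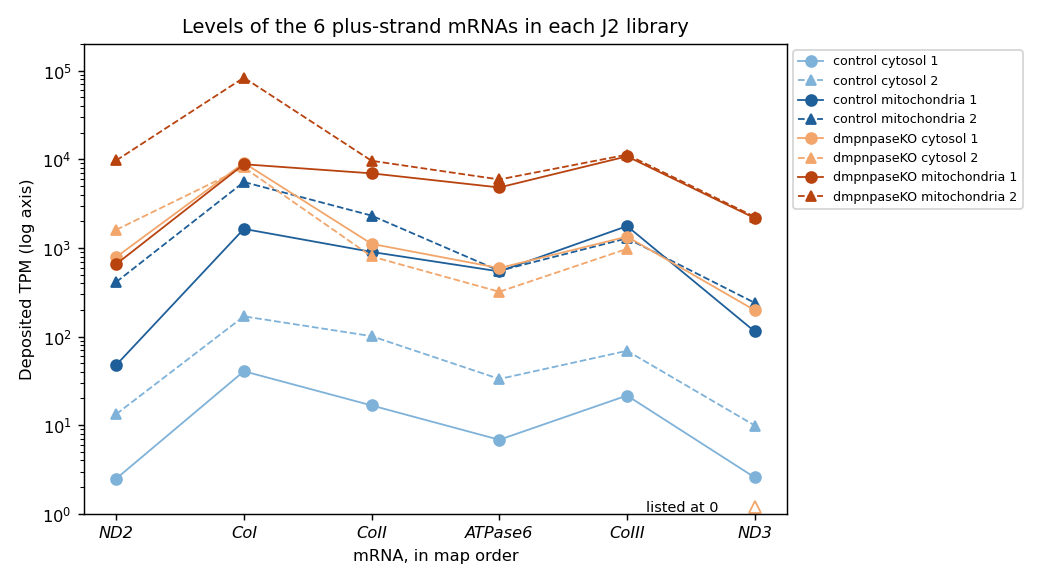
Deposited TPM (y axis, log scale) of the 6 mRNAs in map order (x axis), with a line for each of the 8 libraries and an open symbol at the lower edge for ND3 listed at 0 in dmpnpaseKO cytosol replicate 2. CoI forms the peak in 6 libraries, from 40.6 to 83383 TPM, while the 2 dmpnpaseKO mitochondria libraries nearly coincide at ATPase6, CoIII and ND3 and part at ND2 and CoI.

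The order of levels within the block was partly fixed and partly not. CoI was above CoII, ATPase6 and ND3 in 8 of 8 libraries, CoII was above ATPase6 in 8, and CoIII was above ATPase6 in 8. CoIII lay above CoII in 6 libraries and below it in 2, and ND2 lay above ND3 in 5 and below it in 3, so neither of these pairs has an order that exceeds the spread between libraries. The 6 mRNAs together made up between 55.8% and 74.1% of the TPM of the 11 mitochondrial mRNAs. In controls the share was 69.8% and 64.6% (cytosol) and 74.1% and 55.8% (mitochondria), and in dmpnpaseKO it was 61.7% and 58.5% (cytosol) and 72.9% and 70.1% (mitochondria). Both dmpnpaseKO cytosol libraries lay below both of the control cytosol, which in turn lay below both of dmpnpaseKO mitochondria, and control mitochondria, with the lowest and the highest share of all 8 libraries, overlapped with every other group. Of all TPM the block took 0.00908% and 0.0396% in cytosolic and 0.501% and 1.03% in mitochondrial libraries of controls. In dmpnpaseKO larvae it took 1.31% and 1.18% of cytosolic and 3.42% and 12.2% of mitochondrial libraries, so its share was lowest in the cytosol of controls and highest in the mitochondria of dmpnpaseKO larvae.

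Within the block, the balance between its upstream and downstream ends differed between libraries. ND2 and CoI together made up 47.4% and 46.1% of the block in cytosolic libraries of controls and 75.3% and 82.2% in those of dmpnpaseKO, which do not overlap. In mitochondria they made up 33.7% and 57.6% in controls and 27.7% and 76.2% in dmpnpaseKO, which do. The difference in mitochondria was thus larger between replicates than between genotypes. In the same fraction CoI alone accounted for 32.7% and 53.6% of the block in controls and for 25.7% and 68.3% in dmpnpaseKO.

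**Figure D3:**
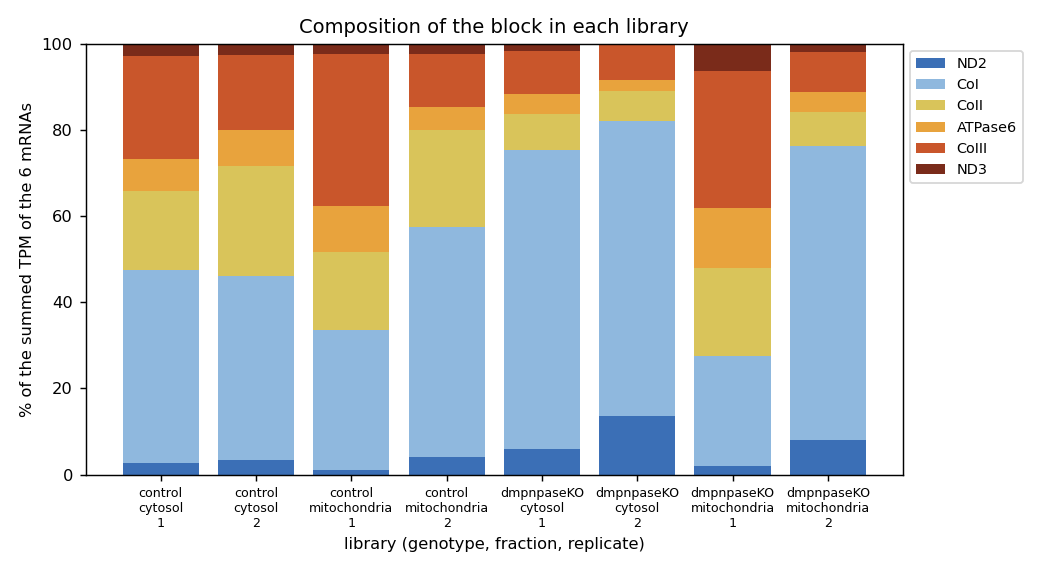
Share of each mRNA in the summed TPM of the block (y axis, %) in each of the 8 libraries (x axis). ND2 and CoI, the 2 blue parts, fill 75.3% and 82.2% of the cytosolic bars of dmpnpaseKO against 47.4% and 46.1% of those of controls, and 27.7% and 76.2% in the 2 dmpnpaseKO mitochondria libraries.

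Of the 6 members, ND2 and CoI parted most between replicates in mitochondria. Between the 2 dmpnpaseKO mitochondria libraries, replicate 2 was 14.8 times replicate 1 for ND2 and 9.49 times for CoI, but 1.39 times for CoII, 1.23 for ATPase6, 1.05 for CoIII and 1.03 for ND3. In control mitochondria the same ratio was 8.63 for ND2, 3.38 for CoI, 2.57 for CoII, 1.02 for ATPase6, 0.728 for CoIII and 2.10 for ND3. In the control cytosol all 6 members were higher in replicate 2, by between 3.19 times for CoIII and 6.03 times for CoII. In the dmpnpaseKO cytosol ND2 was higher in replicate 2, at 2.03 times, and the other 5 were lower, with CoI at 0.888 times and ATPase6 at 0.540 times. Among the 6 members, the replicate error in mitochondria was therefore largest for ND2 and CoI. Wide replicate differences were not particular to them or to the upstream end of the block. Outside the block, ND4 had 314 and 2379 TPM in control mitochondria and 2213 and 17157 TPM in dmpnpaseKO mitochondria. ND5 had 332 and 3552 TPM in control mitochondria, and ND6 parted more than ND2 in dmpnpaseKO mitochondria. Cyt-b and ND1 parted less than ND2 and CoI in both genotypes.

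Ratios between neighbours do not depend on how libraries are scaled, and they were compared between genotypes by an exact two-sided permutation test with the labels permuted within each fraction. With 36 arrangements the smallest p this test allows is 0.0556, so no ratio could pass 0.05. The 5 ratios were adjusted together by the Benjamini-Hochberg method.

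The ratio of ND2 to CoI was 0.0613 and 0.0785 in the cytosol of controls against 0.0866 and 0.198 in that of dmpnpaseKO. In mitochondria it was 0.0291 and 0.0743 against 0.0746 and 0.116. Both dmpnpaseKO libraries were above both controls in each fraction, by a mean of 0.92 on the log2 scale in the cytosol and 1.00 in mitochondria. The mean difference of 0.96 had p = 0.0556 in the exact permutation test, the smallest possible, and an adjusted p of 0.278. The gap between the groups in mitochondria was narrow, with 0.0743 as the higher control and 0.0746 as the lower dmpnpaseKO library.

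The ratio of CoI to CoII was 2.42 and 1.67 in cytosolic control libraries against 8.19 and 10.1 in dmpnpaseKO, a difference of 2.17 on the log2 scale with no overlap. In mitochondria it was 1.82 and 2.39 in controls and 1.27 and 8.67 in dmpnpaseKO, which overlap (log2 difference 0.67). Over both fractions the difference was 1.42 (exact permutation p = 0.167, adjusted p = 0.278), against a replicate SD of 1.01 on the same scale, the largest of the 5 ratios.

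The ratio of CoII to ATPase6 was 2.45 and 3.04 in the cytosol of controls against 1.88 and 2.50 in that of dmpnpaseKO, and 1.66 and 4.19 against 1.44 and 1.63 in mitochondria. It was lower in dmpnpaseKO in mitochondria without overlap (log2 difference -0.78) and overlapped in the cytosol (-0.33), with an overall difference of -0.56 (exact permutation p = 0.167, adjusted p = 0.278).

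ATPase6 and CoIII, the only neighbours of the block with no tRNA gene between them, kept the most even ratio. ATPase6 was at 0.317 and 0.482 of CoIII in cytosolic and 0.308 and 0.430 in mitochondrial libraries of controls. In dmpnpaseKO it was at 0.442 and 0.328 in cytosolic and 0.445 and 0.524 in mitochondrial libraries. From the lowest to the highest library the ratio spanned 0.77 on the log2 scale, while the level of CoIII itself went from 21.6 to 11283 TPM. This was the narrowest span of the 55 pairs that the 11 mitochondrial mRNAs form, ahead of ATPase6 with ND3 (1.10, over the 7 libraries with ND3 above 0) and of CoI with ND4 (1.16), and the 15 pairs within the block had a median span of 2.99 and a widest of 5.92. ND6 and Cyt-b, outside the block, also follow each other on the plus strand with no tRNA gene between them, and their ratio spanned 4.83. The spans are a description and were not tested. The genotypes differed by 0.19 on the log2 scale (exact permutation p = 0.5, adjusted p = 0.5), less than the replicate SD of 0.32.

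The ratio of CoIII to ND3 could be formed in 7 libraries, at 8.42 and 6.96 (cytosol) and 15.4 and 5.34 (mitochondria) in controls, and at 6.78 (cytosol, replicate 1) and 4.98 and 5.03 (mitochondria) in dmpnpaseKO. In these 7 libraries it was lower in dmpnpaseKO in both fractions, by -0.18 on the log2 scale in the cytosol, where only 1 dmpnpaseKO library enters, and by -0.86 in mitochondria, with a mean of -0.52 (exact permutation over 18 arrangements, p = 0.222, adjusted p = 0.278). The direction turned to 1.35 when the difference was taken from log2(scaled TPM + 1), which keeps the library with ND3 listed at 0, so no direction is given for this ratio. Between mitochondria and cytosol, with the labels permuted within each genotype, the 5 ratios differed by between -0.70 and 0.12 on the log2 scale, with exact permutation p between 0.333 and 0.833 and adjusted p between 0.764 and 0.833.

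**Figure D4:**
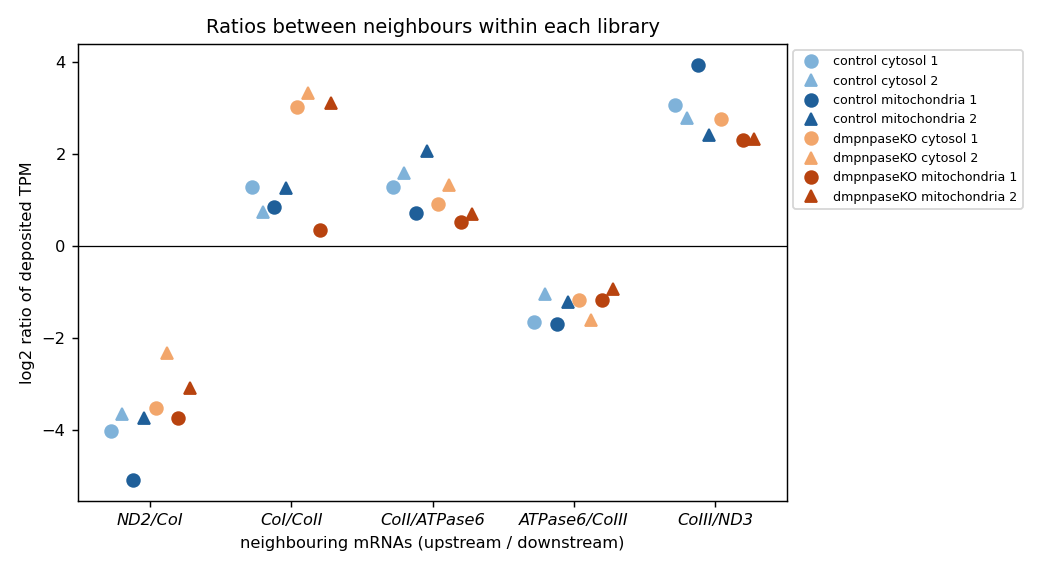
Log2 ratio of deposited TPM (y axis) for the 5 pairs of neighbouring mRNAs, upstream over downstream (x axis), with a point for each library, blue for control and orange or brown for dmpnpaseKO. The points for ATPase6/CoIII lie closest together, over a span of 0.77, and 3 of the 4 dmpnpaseKO points for CoI/CoII, with ratios of 8.19, 10.1 and 8.67, stand above all others of that pair.

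In the cytosol, 5 of the 6 mRNAs lay higher in both dmpnpaseKO libraries than in both controls, and the exception was ND3. Of all 475 genes tested, 8.63% had this order, ND5, ND4, ND6, Cyt-b and ND1 among them. That share is limited by dmpnpaseKO cytosol replicate 2. Only 61 genes were above 0 there, and a gene listed at 0 cannot have the order. For the comparison each library was scaled on the mean of 8 rRNA pseudogenes, which did not move together in the cytosol. After scaling, those of 28S and 5.8S rRNA had log2 fold changes between 0.56 and 1.42 in dmpnpaseKO. Those of 18S rRNA had -1.08 and -0.92. Values were taken as log2(scaled TPM + 1), which makes changes of weakly detected genes look smaller than they are. limma was fitted to the genes whose mean reached 1 TPM, among them all 6 members. On this scale the 2 controls had block medians of 3.57 and 6.46, and the 2 dmpnpaseKO libraries had 9.77 and 9.60. Of the 6, the 2 upstream mRNAs had the highest log2 fold changes, ND2 with 6.76 (standard error 2.46, 95% interval 1.51 to 12) and CoI with 6.09 (1.69, interval 2.48 to 9.70). CoIII had 4.27 (1.89, interval 0.23 to 8.31), ATPase6 4.16 (2.18, interval -0.48 to 8.81) and CoII 3.89 (2.01, interval -0.39 to 8.17). High changes were not particular to ND2 and CoI. Outside the block ND6 had 6.64, Cyt-b 6.36, ND4 6.14, ND1 5.27 and ND5 4.23. Whether the 2 upstream mRNAs of the block differ from the 3 downstream of them in this change was not tested beyond the ratios above.

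Adjusted over all 475 genes by the Benjamini-Hochberg method, limma called 0 of the 6 in the cytosol, where it called 0% of all genes. The smallest adjusted p of the members was 0.292, for ND2 and CoI. At an unadjusted p under 0.05 limma had 3 of the 6, ND2 (0.015), CoI (0.00267) and CoIII (0.0398), against 9.89% of all genes. On unscaled TPM the count of members called was 2, ND2 (adjusted p = 0.0343 from limma) and CoI (0.0064), with 31 of the 475 genes called in all. With a pseudocount of 0.1 it was 1, CoI (0.00446), with 14 genes called in all. Without control cytosol replicate 2, the log2 fold change of CoI was 7.53.

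The median change of the block in the cytosol was 4.21, beside 6.14 for the 5 other mitochondrial mRNAs, -1.97 for the 2 mitochondrial rRNAs, 0.29 for the 443 nuclear-encoded genes and 0.30 for all genes tested. The medians of nuclear-encoded and of all genes rest in part on genes listed at 0 in dmpnpaseKO cytosol replicate 2. Without that library, which has 61 genes above 0, the median of the block was 4.60. Without control cytosol replicate 1 it was 2.86, and without replicate 2 it was 5.61. Scaling by the median of ratios lowered it to 1.35, with 5 of the 6 members above the median of all genes instead of 6. Those ratios were taken over genes outside mtDNA, rRNA pseudogenes included, that were above 0 in all 8 libraries. The 61 genes of dmpnpaseKO cytosol replicate 2 limit that set.

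ND3 had a log2 fold change of 0.72 in the cytosol (standard error 2.58, 95% interval -4.79 to 6.23, limma adjusted p = 1), a value that rests on the library in which it was listed at 0. Without that library it was 4.49 (adjusted p = 0.091), near the median of the block. Without dmpnpaseKO cytosol replicate 1, which leaves only the library at 0, it was -3.05. Its sign also turned under median-of-ratios scaling (-1.25), under scaling on the summed TPM of nuclear genes (-0.41), with a pseudocount of 0.1 (-0.70) and without control cytosol replicate 1 (-0.48), so no direction is given for it.

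In mitochondria all 6 mRNAs lay higher in both dmpnpaseKO libraries than in both controls, an order that 91.4% of all 475 genes shared. The block medians were 9.15 and 9.81 in controls and 12.29 and 13.38 in dmpnpaseKO. The log2 fold changes ran from 2.57 for CoII (standard error 2.01) to 4.22 for ND2 (2.46), with ND3 at 3.80 (2.58), ATPase6 at 3.35 (2.18), CoI at 3.24 (1.69) and CoIII at 2.95 (1.89). The 95% intervals of all 6 included 0, from -1.71 to 6.86 for CoII and from -0.37 to 6.85 for CoI.

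limma called 0 of the 6 in mitochondria, with adjusted p between 0.0901 (CoI) and 0.243 (CoII), while it called 78.7% of all genes upwards and 81.3% in either direction. At an unadjusted p under 0.05 it had 0 of the 6, against 82.3% of all genes. The median change of the block was 3.30, beside 3.19 for the other mitochondrial mRNAs, -0.34 for the mitochondrial rRNAs and 2.25 for the nuclear-encoded genes, which had smaller errors. The number of members called depended on the model of the spread: in a fit to the mitochondrial fraction alone, limma called all 6 (adjusted p between 0.00112 for CoIII and 0.0376 for ND2) and 428 of the 475 genes. Without the intensity trend it called 379 of all genes and 3 of the 6, ND2 (0.0459), ATPase6 (0.0126) and CoIII (0.0108).

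The size of the change in mitochondria depended on the scaling. The median of all genes tested moved from 2.23 by -1.28 under median-of-ratios scaling and by -1.84 under scaling on the summed TPM of nuclear genes. Relative to the median of all genes, the block stood 1.06 higher with the pseudogenes, 0.06 higher under median-of-ratios scaling (3 of 6 members above) and at -0.23 under the nuclear sum (2 of 6 above), where CoII (-0.56) and CoIII (-0.19) turned negative. In the cytosol the block stood above the median of all genes under all 5 scalings tried, by between 1.33 and 4.39. Most genes tested were listed at 0 in dmpnpaseKO cytosol replicate 2, and no scaling changes a 0. The median of all genes in the cytosol rests in part on these values.

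**Figure D5:**
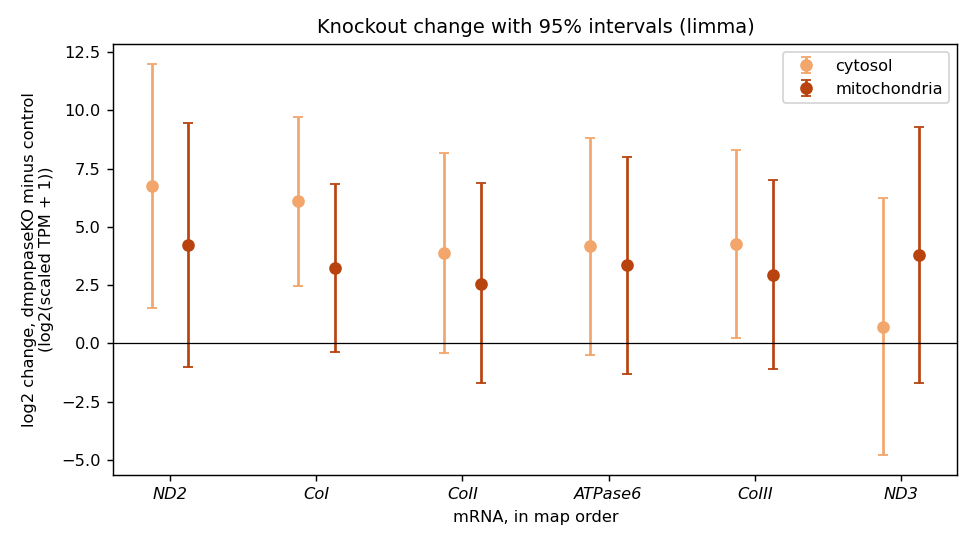
Log2 fold change of dmpnpaseKO against control (y axis, log2(scaled TPM + 1)) for each mRNA in map order (x axis), light points for the cytosol and dark points for mitochondria, with bars for the 95% intervals from limma (2 libraries per group). ND2, CoI and CoIII in the cytosol are the points whose intervals exclude 0, without adjustment for the 475 genes tested.

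No difference in knockout change between cytosol and mitochondria was detected for any of the 6. limma's interaction (the change in mitochondria minus that in the cytosol) was -2.53 for ND2, -2.85 for CoI, -1.32 for CoII, -0.81 for ATPase6, -1.32 for CoIII and 3.08 for ND3. Of the 6, 0 passed the threshold, against 31.2% of all genes, and the smallest adjusted p was 0.294, for CoI (95% interval -7.96 to 2.26). At an unadjusted p under 0.05 the counts were 0 of 6 and 61.5% of all genes. The intervals are wide enough to hold large differences in either direction. The sign of the block median, -1.32, turned to 0.14 without control cytosol replicate 1. The value of ND3 turned to -0.69 without the dmpnpaseKO cytosol library in which it is listed at 0. Without the other library of that group, which leaves only the library at 0, it was 6.84.

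In control larvae all 6 mRNAs were higher in both mitochondrial libraries than in both cytosolic ones, as were 64.0% of all genes. The mean log2 difference between fractions ran from 3.81 for ND2 to 4.70 for CoIII. The median was 4.54, beside 4.63 for the other mitochondrial mRNAs and 0.47 for nuclear-encoded genes. The mitochondrial rRNAs went the other way (srRNA -2.13, lrRNA -3, median -2.56). The higher values in the mitochondrial fraction thus do not hold for all RNA of mtDNA. limma called 0 of the 6 and 1.05% of all genes, with adjusted p from 0.329 (CoI) to 0.735 (ND2), and at an unadjusted p under 0.05 it had 3, against 9.68% of all genes. Pseudogenes used for the scaling were among the genes called, in opposite directions. 28SrRNA-Psi:CR45851 (2.43) and 5.8SrRNA-Psi:CR45854 (2.42) were higher and 18SrRNA-Psi:CR41602 (-1.58) was lower in mitochondria. Without control cytosol replicate 2 the difference of CoI was 6.06, and the block median without replicate 1 or 2 of the control cytosol was 3.04 and 5.97. The narrow range along the block holds for the mean of unlike libraries. Without control mitochondria replicate 2 the differences ran from 2.08 for ND2 to 4.73 for CoIII, and without replicate 1 ND2 was at 5.55 and CoIII at 4.67.

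In dmpnpaseKO larvae the mean difference between fractions was lower for ND2 and CoI than for the 4 mRNAs downstream of them, which rests on 1 library, dmpnpaseKO mitochondria replicate 1. CoII, ATPase6, CoIII and ND3 were higher in both mitochondrial libraries than in both cytosolic ones, an order of 86.7% of all genes, whereas ND2 and CoI overlapped between the fractions. The log2 differences were 1.28 for ND2, 1.77 for CoI, 3.23 for CoII, 3.72 for ATPase6, 3.38 for CoIII and 7.31 for ND3. Low differences were not particular to ND2 and CoI. Outside the block ND6 had -0.43, ND4 1.36, Cyt-b 1.63, ND5 2.52 and ND1 2.87. The median was 2.42 for nuclear-encoded genes and -0.94 for the mitochondrial rRNAs. limma called 1 of the 6, ND3 (standard error 2.58, 95% interval 1.80 to 12.81, adjusted p = 0.0168), and 81.9% of all genes. That call rests on the library in which ND3 is listed at 0, and without it the difference was 3.54 (adjusted p = 0.0561). It was also lost without either dmpnpaseKO mitochondria library (adjusted p = 0.0793 and 0.0895), with every gene above 0 tested (0.653) and under the nuclear sum (5.37, 0.179). Without dmpnpaseKO mitochondria replicate 1, the differences were 3.40 for ND2, 3.57 for CoI, 3.64 for CoII, 4.05 for ATPase6 and 3.59 for CoIII, close to each other. Without replicate 2 of that group, those of ND2 and CoI turned to -0.84 and -0.03, so for these 2 mRNAs no direction between the fractions is given.

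The ratio of the block to the mitochondrial rRNAs sets the mRNAs against other RNA of the same genome. In cytosolic libraries it was 0.000398 and 0.000692 for controls against 0.0948 and 0.139 for dmpnpaseKO. In mitochondrial libraries it was 0.191 and 0.0425 against 1.05 and 1.36. In each fraction both dmpnpaseKO libraries were above both controls. The ratio does not depend on the scaling and was not tested. It compares the mRNAs and rRNAs of mtDNA with each other in the recovered RNA and does not show that either stayed the same.

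The members varied together across the 8 libraries to different degrees. Pearson's r of their log2 values was 1.00 for ATPase6 with CoIII, 0.99 for CoII with ATPase6 and 0.98 for ND2 with CoI, and it was lowest, 0.51, for ND2 with ND3, which includes the library with ND3 listed at 0. These are descriptions over libraries that fall into 4 groups and share their scaling. Of the other mitochondrial mRNAs, ND1 was most like the mean of the block (0.99) and ND6 least (0.77). Of 292 nuclear-encoded genes above 0 in at least 6 libraries, those most like it were Gs2, RpS23 and RpL35 (0.86 each) and Hsc70-4 and Hsc70-3 (0.84 each), beside a median of 0.75 for all 292.

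Genes that act on mitochondrial RNA gave little signal in these libraries. Of 16 listed genes of transcription, processing, polyadenylation and decay, 14 were in the table and 0 reached the mean of 1 TPM needed for a test. The highest value was 2.5 TPM for scu, a subunit of mitochondrial RNase P, which cuts tRNAs from their precursors, and Suv3, the helicase of the degradosome, reached 0.163 TPM. Their knockout change was therefore not tested.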

How the data were processed

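J2-recovered RNA of 8 libraries (2 genotypes, 2 fractions, 2 libraries each) was analysed from the deposited TPM, which the authors obtained by quasi-mapping paired reads of 42 bp with Salmon 0.11.3 against the BDGP6 cDNA set (Ensembl release 94). The step from transcripts to genes is not given in the sources used here, replicates were not pooled, and sense and antisense reads are not separated. TPM carry no read depth, so no counting intervals or detection floors are given. Columns were matched to labels by name, with 0 value columns left over. Positions are from Ensembl release 115 of BDGP6.

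Each library was divided by its mean over the 8 rRNA pseudogenes of the study's methods, rescaled to their average, and analysed as log2(scaled TPM + 1). limma 3.58.1 (R 4.3.3, eBayes with intensity trend) was fitted to the 475 genes whose mean reached 1 TPM, with 4 group means and Benjamini-Hochberg adjustment at 0.05. The code was tested on simulated data. Neighbour ratios were tested by exact permutation (own code in Python 3.11.15) and figures drawn with matplotlib 3.10.9. Named genes were the 6 members, the other mitochondrial genes, a list of mitochondrial RNA metabolism genes, larval tissue markers and the 5 nuclear genes most correlated with the block. Members and lists were chosen with earlier results of these data known. Alternatives were unscaled TPM, 3 other scalings, pseudocounts of 0.1 and 10, a minimum mean of 10 TPM or none, no trend, the replicate number as a block, separate fits to the fractions, and leaving out each library. SLIRP1, mtTFB1 and wupA, and the qRT-PCR, blot and imaging data, were not analysed here.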

Additional observations from a re-analysis of the deposited data

How the results depend on the processing

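The median log2 change of the block kept its sign in both knockout comparisons and both fraction comparisons under every setting tried. In the cytosol (4.21) it was 1.35 with median-of-ratios scaling, and between 2.86 and 5.61 with 1 library left out. In mitochondria (3.30) it was 1.01 with median-of-ratios scaling and 0.16 with the nuclear sum, and between 2.45 and 3.94 with 1 library left out. The fraction difference in controls (4.54) ranged between 3.04 and 5.97 with 1 library left out. In dmpnpaseKO (3.30) it was 0.76 with the nuclear sum and between 2.99 and 3.61 with 1 library left out. The interaction (-1.32) was -3.75 with the nuclear sum and between -2.78 and 0.14 with 1 library left out. The causes were not tested.

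Of the genes tested under the same setting, members called in the cytosol (0) numbered 2 of 31 called on unscaled TPM and 1 of 14 with pseudocount 0.1. In mitochondria (0 of 386) they numbered 1 of 391 with pseudocount 10 (ND3), 3 of 379 without the trend and 6 of 428 with each fraction alone. For the fractions in dmpnpaseKO (1 of 389) they numbered 0 of 4 with the nuclear sum, 2 of 381 with pseudocount 10, 0 of 5705 without a filter and 4 of 376 without the trend. Leaving out 1 library leaves its group with 1 library, so no counts of members called are given for those settings.

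The same-numbered libraries share only a number in the labels. Their deviations from the group means correlated at -0.0126 in the cytosol and 0.68 in mitochondria. With the replicate block, members called in mitochondria numbered 1 of 389, CoI (3.24, limma adjusted p = 0.0481), and in the other 4 comparisons the count was as without it.

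Signs of single mRNAs turned as follows. For ND3 in the cytosol the values were -1.25 (median of ratios), -0.41 (nuclear sum), -0.70 (pseudocount 0.1), and between -3.05 and 4.49 with 1 library left out. With the nuclear sum CoII and CoIII in mitochondria were -0.56 and -0.19, and ND2 and CoI between fractions in dmpnpaseKO were -1.26 and -0.78. With 1 library left out the latter ranged from -0.84 to 3.40 and from -0.03 to 3.57, the negative values without dmpnpaseKO mitochondria replicate 2. With 1 library left out the interaction ranged from -3.0 to 0.37 for CoII, from -2.29 to 0.67 for ATPase6 (both positive without control cytosol replicate 1) and from -0.69 to 6.84 for ND3 (negative without dmpnpaseKO cytosol replicate 2). The genotype difference of CoIII/ND3 was 1.35 when taken from log2(scaled TPM + 1), which keeps the library with ND3 listed at 0.

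With 1 library left out, the genotype differences of the ratios ranged from 0.62 to 1.30 for ND2/CoI, 0.73 to 2.11 for CoI/CoII, -0.89 to -0.22 for CoII/ATPase6, 0.03 to 0.34 for ATPase6/CoIII and -0.90 to -0.14 for CoIII/ND3, which has no value without dmpnpaseKO cytosol replicate 1. With no library left out, calls over all genes tested ranged from 0 to 31 in the cytosol and from 10 to 5525 in mitochondria. They ranged from 1 to 13 between fractions in controls, 4 to 5705 between fractions in dmpnpaseKO and 0 to 2167 for the interaction. The values 5525, 5705 and 2167 came without a filter, where every gene above 0 was tested in place of the 475. Fits to each fraction alone give no fraction difference or interaction. Depth is not known from TPM.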
